A study of Mus musculus and Homo sapiens with 12 samples.

Results

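The 10 genes described here serve glycolysis from fructose bisphosphate to lactate, apart from the enolase step, and move lactate across the plasma membrane. They are ALDOA, TPI1, GAPDH, PGK1, PGAM1, PKM, LDHA, LDHB, SLC16A1 and SLC16A3, chosen by name from the pathway with earlier results of these data known. All 10 were present in the mouse table, among 54331 identifiers, and all 10 in the human table, among 60233. Messenger RNA was sequenced from 2 breast cancer lines, the mouse line EMT6 (mammary carcinoma) and the human line MDA-MB-231 (adenocarcinoma). Each had 3 wild-type libraries and 3 libraries labelled as a knockout of PFKFB4, 12 in all. Both lines were grown in the same high-glucose medium with serum, and no other treatment or allele is named in the labels. Libraries are labelled as biological replicates, but nothing says which part of the gene was deleted, whether a knockout is 1 clone or whether cultures were separate, so a p-value here weighs a difference against the scatter of these libraries alone. Levels are in TPM, transcript abundance scaled to a common library total, which corrects for transcript length, so that genes can be compared within a library.

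Lower glycolysis begins where aldolase splits fructose bisphosphate into a pair of triose phosphates and ends with pyruvate. Its dehydrogenase step consumes NAD+, and lactate dehydrogenase restores it by turning pyruvate into lactate, which leaves the cell with a proton through monocarboxylate transporters. PFKFB4 acts upstream, on the regulatory fructose bisphosphate that activates phosphofructokinase. Many genes of this pathway are textbook targets of the hypoxia-inducible factors, whose DNA element has the core ACGTG, and tumour cells commonly express them strongly also in oxygen.

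The start regions of 4 mouse members are shown because these members carry the contrasts described next: both transporter genes fell in the EMT6 knockout, Pgk1 rose, and the direction of Ldha followed the scaling. Each line gives the 250 bases before a RefSeq start site on GRCm38.p6, 5′ to 3′ on the strand of the gene, and capitals mark ACGTG or its reverse complement CACGT. The windows are chr3:104638414-104638663 for Slc16a1 (plus strand, outside annotated genes), chr11:120948817-120949066 for Slc16a3 (plus strand, within the gene, with 14 bases in an annotated UTR), chrX:106186850-106187099 for Pgk1 (plus strand, outside annotated genes) and chr7:46845554-46845803 for Ldha (plus strand, within the gene and outside its annotated exons).
Slc16a1: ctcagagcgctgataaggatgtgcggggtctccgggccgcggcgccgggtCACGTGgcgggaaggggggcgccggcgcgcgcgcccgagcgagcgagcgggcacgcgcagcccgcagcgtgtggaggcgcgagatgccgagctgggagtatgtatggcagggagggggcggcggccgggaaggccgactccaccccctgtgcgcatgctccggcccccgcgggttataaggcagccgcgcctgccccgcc
Slc16a3: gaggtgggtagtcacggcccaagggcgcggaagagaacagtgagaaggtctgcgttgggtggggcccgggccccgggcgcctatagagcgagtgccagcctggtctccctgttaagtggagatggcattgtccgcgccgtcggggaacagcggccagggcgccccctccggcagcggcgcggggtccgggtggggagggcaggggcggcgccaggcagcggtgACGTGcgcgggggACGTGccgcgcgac
Pgk1: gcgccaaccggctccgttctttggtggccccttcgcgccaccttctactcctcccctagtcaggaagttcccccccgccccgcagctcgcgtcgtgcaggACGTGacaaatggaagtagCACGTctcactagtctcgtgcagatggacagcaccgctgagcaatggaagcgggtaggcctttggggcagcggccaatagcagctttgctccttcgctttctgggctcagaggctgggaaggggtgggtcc
Ldha: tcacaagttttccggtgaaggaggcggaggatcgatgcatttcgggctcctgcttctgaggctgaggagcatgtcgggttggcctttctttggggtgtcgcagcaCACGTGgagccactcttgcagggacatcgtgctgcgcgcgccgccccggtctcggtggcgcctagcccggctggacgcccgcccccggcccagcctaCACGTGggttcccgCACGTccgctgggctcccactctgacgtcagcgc

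All 4 windows shown hold the core. Ldha has another RefSeq window, before a start at 46847082, that is not shown and has no match. In Slc16a1 it lies in 1 CACGTG, the palindromic E-box, which holds ACGTG on both strands. In Slc16a3 it occurs 27 and 14 bases before the start, and in Pgk1 150 and 131 bases before it, the second on the other strand. The Ldha window shown has 2 copies of CACGTG and a further CACGT 34 bases before the start. Of the 10 mouse members, 7 have the core in at least 1 of their RefSeq windows, and some members have several windows. By window it was 8 of 14, against 16.6% of all 32851 windows. Of these 8, 2 are overlapping Aldoa windows that share 1 site. CACGTG occurred in 2 members. It was in 6.0% of all windows, a share of windows and not of genes. The median GC content was 63.4% in the members' windows and 52.4% in all windows. Tpi1, Gapdh and Ldhb have no match in these 250 bases. The core thus lay before genes that fell, a gene that rose and genes that were not called. The expression tables hold no measurement of what binds there.

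The labelled cell types were checked on marker lists in EMT6. Of 8 mammary carcinoma markers, Krt8 and Vim were the most abundant, while Epcam, Krt5 and Cdh1 stayed under 1 TPM on average in both groups. Of the 5 tested, 2 were called higher and 3 lower on all 3 scales: Vim (log2 fold change 0.28) and Krt8 (0.15) rose, while Krt14 fell from 36.5 to 3.94 TPM (-2.92, limma adjusted p = 1.06e-05), Krt18 from 36.3 to 15.5 TPM (-1.17, adjusted p = 0.000368) and Cd44 from 60.0 to 38.2 TPM (-0.64, adjusted p = 0.00379). Of 8 leukocyte markers, 6 averaged under 1 TPM after knockout, Adgre1 was listed at 0 in all 6 libraries and Ptprc did not exceed 0.00409 TPM. The list summed to 24.7 to 28.7 TPM in wild type, against 58.6 to 63.8 TPM in the knockout, nearly all of it Cd68 (mean 23.9 and 56.1 TPM) and Coro1a (2.17 and 5.14 TPM), both called higher. The 4 endothelial markers summed to at most 0.0837 TPM in any library, and the 4 fibroblast markers to 4.76 to 5.93 and 4.66 to 4.76 TPM. Within that sum Dcn rose from 0.412 to 2.52 TPM (1.32, limma adjusted p = 0.000156) and Pdgfra fell from 4.83 to 2.18 TPM (-0.87, adjusted p = 0.00112). The part of these markers in the results was not tested. Pfkfb4 itself stood at 10.2, 10.5 and 10.4 TPM in EMT6 wild type against 6.96, 6.87 and 8.24 TPM after knockout (log2 fold change -0.45 ± 0.08 SE, limma adjusted p = 0.00487), so its transcript was lower but present. Median-ratio scaling gave -0.23 (adjusted p = 0.0632) and removal of the exon length trend -0.18 (adjusted p = 0.134), so the call was lost on both. The human PFKFB4 transcript was not analysed here. In bulk RNA, fewer cells of a type and less RNA per cell cannot be told apart.

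In EMT6, both lactate transporter transcripts fell in the knockout on all 3 scales used here. Of the 6 member enzymes from aldolase to pyruvate kinase, which leave out enolase, only Pgk1 passed the test on deposited TPM. Enolase genes, some of them called, are given with the neighbouring lists. Slc16a1 fell to 58.2% and Slc16a3 to 60.4% of the wild-type mean in TPM. Pgk1, phosphoglycerate kinase, rose to 123% of wild type. Of the 9 members tested, limma called 1 higher (Pgk1) and 3 lower (Slc16a1, Slc16a3 and Ldha), against 14.5% and 42.3% of all 13499 tested genes (56.7% in either direction). Ldhb, listed at 0, was not tested. The median log2 fold change was -0.03 over the members and -0.21 over all tested genes. Median-ratio scaling, which gives libraries a common typical gene, moved the all-gene median to -0.01. On that scale 6 members were called higher and 2 lower, against 26.6% and 25.4% of all genes, and the members' median was 0.21. With the trend of fold change on exon length removed, 3 were called higher and 2 lower, against 23.2% and 26.6%, and the members' median was 0.04. Members of EMT6 whose sign or call differed between scales have those values beside them.

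In MDA-MB-231, enzyme, LDH and transporter transcripts all had called members. LDHA fell to 68% and GAPDH to 73.6% of the wild-type mean, PGK1 to 82.6% and SLC16A3 to 66.4%, while SLC16A1 rose from a very low level. All 10 members were tested, SLC16A1 only because its knockout libraries passed the filter of 0.5 TPM in 3 libraries. Limma called 1 higher and 4 lower, against 7.97% and 12.1% of all 15299 tested genes (20.0% in either direction). Under median-ratio scaling 1 was higher and 2 lower, against 10.5% and 11.4%. The median log2 fold change was -0.22 over the members and -0.04 over all tested genes. The plot of members' levels by library and the plot of knockout effects show both lines on the same scales. The 2 tables come from different species and were normalized separately, so levels are compared only within a line. The difference between the lines' knockout effects was not tested, since human names were at hand for the members alone.

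**Figure D1:**
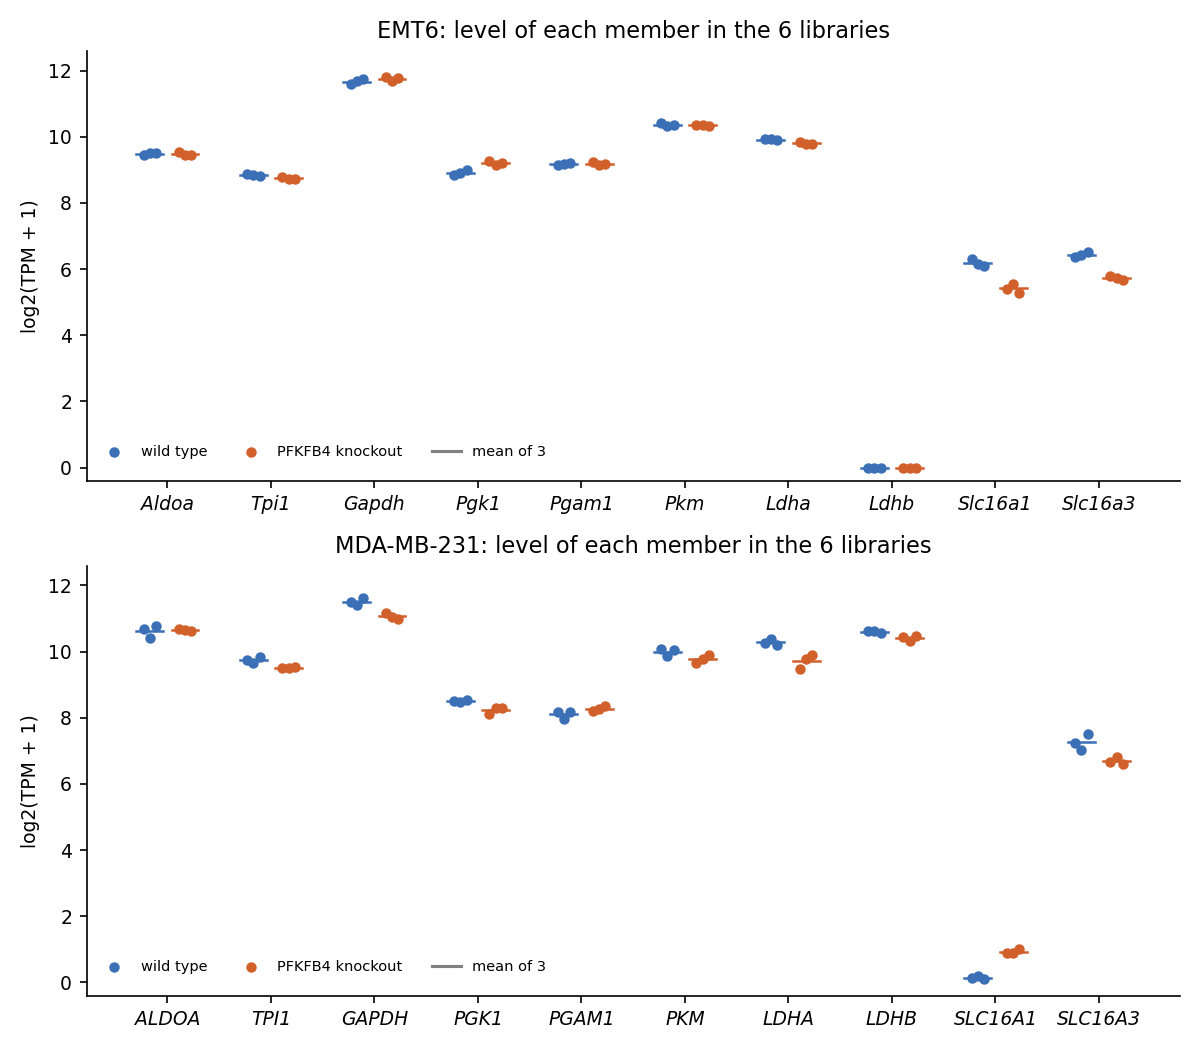
Level of each member as log2(TPM + 1) in every library, EMT6 above and MDA-MB-231 below; points are libraries (blue wild type, orange PFKFB4 knockout) and lines are means of 3. Ldhb lies at 0 in all 6 EMT6 libraries and SLC16A1 lies under 1 in all 6 MDA-MB-231 libraries, while all other members lie above 5 on this scale.

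**Figure D2:**
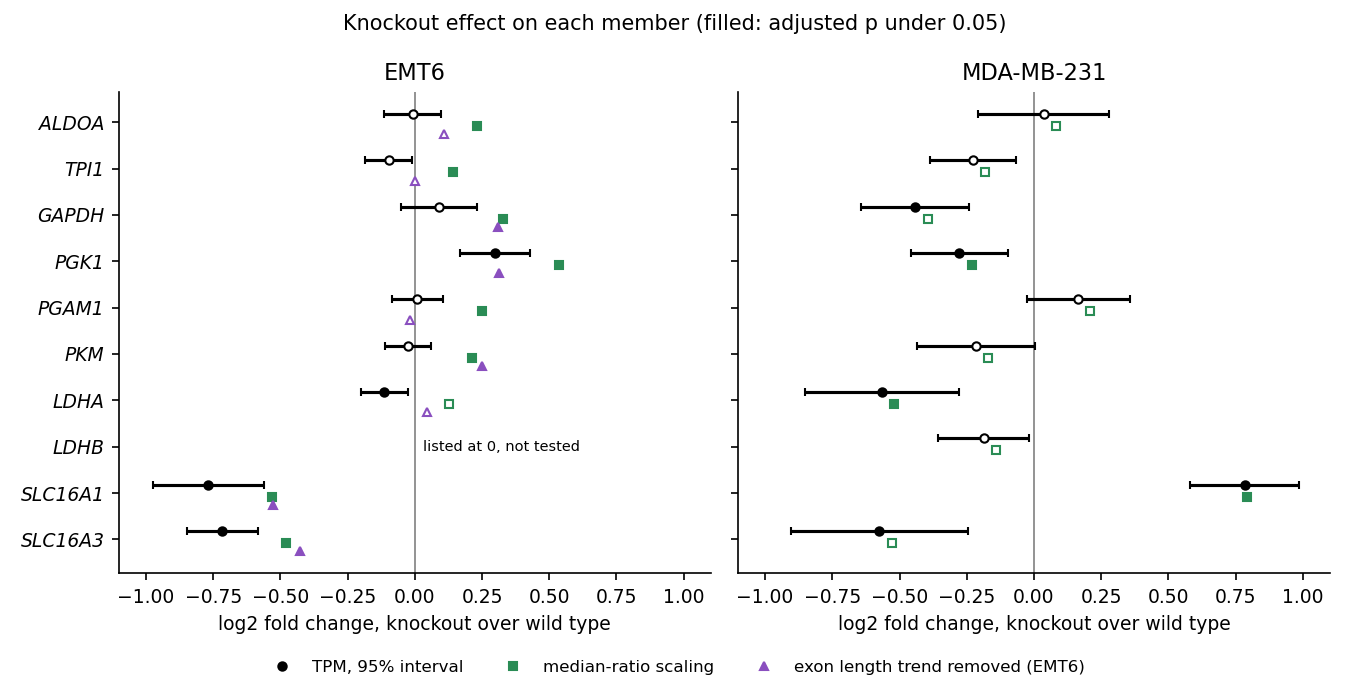
Log2 fold change of each member, knockout over wild type, in EMT6 (left) and MDA-MB-231 (right); circles with 95% intervals are on deposited TPM, squares after median-ratio scaling, triangles with the exon length trend removed (EMT6), and filled symbols have an adjusted p under 0.05. In EMT6 Slc16a1 and Slc16a3 lie at -0.77 and -0.72 and stay below 0 on every scale; in MDA-MB-231 SLC16A1 lies at 0.78 and SLC16A3 at -0.58.

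Aldolase A, which splits fructose bisphosphate, did not pass the test on deposited TPM in either line. Aldoa had a mean of 718 ± 18.6 TPM in EMT6 wild type against 714 ± 30.2 TPM after knockout (SD, n = 3), a log2 fold change of -0.01 with a 95% interval from -0.12 to 0.10. Median-ratio scaling put it at 0.23 (limma adjusted p = 0.0148, called higher) and removal of the exon length trend at 0.11 (adjusted p = 0.066). ALDOA in MDA-MB-231 had a mean of 1582 ± 196 and 1614 ± 48.3 TPM, with an interval from -0.21 to 0.28. Its wild-type libraries spread from 1363 to 1739 TPM and enclosed all 3 knockout libraries. A second mouse record named Aldoa had under 1.2 TPM in every library and is not counted as the member.

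Triose phosphate isomerase, which interconverts the triose phosphates, was lower without overlap on deposited TPM in both lines and missed the threshold in both. Tpi1 stood between 447 and 465 TPM in EMT6 wild type against 420.0 to 439 TPM after knockout (log2 fold change -0.10, limma adjusted p = 0.0558). Median-ratio scaling put it at 0.14 (adjusted p = 0.0342), called higher, and removal of the exon length trend at -0.001 (adjusted p = 0.983). TPI1 in MDA-MB-231 stood between 808 and 905 TPM and between 721 and 747 TPM (-0.23, adjusted p = 0.0566). Counting members without overlap, 4 of 10 lay lower and 1 higher in EMT6, against 48.3% and 17.9% of tested genes (66.2% in all). In MDA-MB-231, 6 lay lower and 2 higher, against 22.9% and 17.2% (40.1% in all).

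Glyceraldehyde phosphate dehydrogenase, the NAD+-consuming step and a common reference transcript, was the most abundant member in both lines. In EMT6, Gapdh had 3061, 3275 and 3449 TPM in wild type, against 3548, 3309 and 3542 TPM in the knockout. The groups overlapped (log2 fold change 0.09, 95% interval -0.05 to 0.23, limma adjusted p = 0.232), but median-ratio scaling gave 0.33 (adjusted p = 0.0107) and removal of the length trend 0.31 (adjusted p = 0.0109), both called higher. In MDA-MB-231, GAPDH had 2901, 2744 and 3138 TPM in wild type, against 2318, 2117 and 2030 TPM in the knockout. Every knockout library lay below every wild-type library (log2 fold change -0.44, SE 0.08, limma adjusted p = 0.0144). Median-ratio scaling left -0.40 (adjusted p = 0.0684), and the call was also lost when knockout replicate 2, knockout replicate 3 or wild-type replicate 1 was left out (adjusted p from 0.0513 to 0.0613). GAPDH has many processed pseudogenes, which can share reads with it. Adding the rows that carry a member's symbol with the suffix ps or rs to its value changed no EMT6 call. Pseudogenes under other names were not added, so this step does not cover them. The human pseudogenes were not analysed here.

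Phosphoglycerate kinase, the first ATP-yielding step, was called higher in EMT6 and lower in MDA-MB-231. In EMT6, Pgk1 (ENSMUSG00000062070, chromosome X, 106187100 to 106203699 on GRCm38) had 458, 483 and 504 TPM in wild type, against 619.5, 567 and 590.5 TPM in the knockout. All knockout libraries lay above all wild-type libraries, and the log2 fold change was 0.30 with an SE of 0.05 (limma adjusted p = 0.00477). It was 0.54 under median-ratio scaling and 0.31 with the exon length trend removed, and Pgk1 was called higher in all 14 alternatives. In MDA-MB-231, PGK1 had 363, 355 and 374 TPM in wild type, against 275, 314 and 314 TPM in the knockout. The groups did not overlap in the other direction (-0.28 ± 0.07 SE, adjusted p = 0.0451). This call was lost in all 6 fits that left out 1 library (adjusted p from 0.065 to 0.14).

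Phosphoglycerate mutase, which moves the phosphate from carbon 3 to carbon 2, did not pass the test on deposited TPM in either line. Pgam1 had a mean of 576 ± 13.8 and 579.9 ± 17.6 TPM in EMT6 (log2 fold change 0.01, 95% interval -0.08 to 0.10), with 0.25 under median-ratio scaling (limma adjusted p = 0.00777), whereas removing the length trend gave -0.016 (adjusted p = 0.658). PGAM1 in MDA-MB-231 had 287, 251 and 286 TPM in wild type, against 293, 305 and 323 TPM in the knockout. It was the only member enzyme there whose knockout libraries all lay above the wild type (0.16, limma adjusted p = 0.199). Pyruvate kinase M, which makes pyruvate and ATP, had the smallest spread of any tested member among EMT6 knockout libraries relative to its mean, with 1303, 1303 and 1291 TPM against 1367, 1289 and 1312 TPM (-0.03, adjusted p = 0.569). Pkm was called higher on both other scales, at 0.21 after median-ratio scaling (adjusted p = 0.00435) and 0.25 once the length trend was removed (adjusted p = 0.00103). PKM in MDA-MB-231 had a mean of 1019 ± 81.9 and 877 ± 67.8 TPM, with overlapping groups (-0.22, adjusted p = 0.147). Gene-level values do not separate the M1 and M2 splice forms.

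Lactate dehydrogenase is a tetramer of A and B subunits, of which A is the form best known for making lactate and B for using it. In EMT6, Ldha (ENSMUSG00000063229, chromosome 7, 46841475 to 46855627) had 974.9, 966 and 949.7 TPM in wild type, against 921, 875 and 877 TPM in the knockout. The groups did not overlap, but the difference was small (log2 fold change -0.11 ± 0.04 SE, limma adjusted p = 0.0367). Its direction followed the scale: median-ratio scaling gave 0.13 (adjusted p = 0.0567) and removal of the length trend 0.04 (adjusted p = 0.319). It was also lost in 5 of the 6 fits without 1 library, all but that without knockout replicate 1. Ldhb (ENSMUSG00000030246, chromosome 6, 142490249 to 142507957) was listed at 0 in all 6 EMT6 libraries, so it was not tested.

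In MDA-MB-231 both subunits were abundant. LDHA had 1236, 1330.0 and 1165 TPM in wild type, against 712, 871 and 953 TPM in the knockout, with knockout replicate 1 the lowest. All knockout libraries lay below the wild type, and the log2 fold change was -0.57 with an SE of 0.12 (limma adjusted p = 0.0205), the largest among the members that are enzymes in either line. Median-ratio scaling kept the call (-0.52, adjusted p = 0.0123). Of the fits without 1 library, 3 of 6 kept it, namely those without knockout replicate 1, knockout replicate 3 or wild-type replicate 3, and the highest adjusted p was 0.0716. LDHB had 1575, 1574 and 1503 TPM in wild type, against 1395, 1266 and 1429.8 TPM in the knockout, without overlap, and did not pass the test (-0.19, adjusted p = 0.114).

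The subunit ratio within a library does not depend on how libraries are scaled. LDHB made up 56.0, 54.2 and 56.3% of LDHA plus LDHB transcript in the MDA-MB-231 wild-type libraries and 66.2, 59.2 and 60.0% in the knockout libraries. The share was 55.5 ± 1.16% and 61.8 ± 3.81% (SD, n = 3 each), higher in 3 of 3 knockout libraries than in any wild-type library. The difference was 6.30 percentage points, and 4.11 without knockout replicate 1. The exact two-sided permutation test gave p = 0.1, the smallest that 3 against 3 can give. The summed LDH transcript went from 2795 ± 118 to 2209 ± 151 TPM.

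SLC16A1 encodes monocarboxylate transporter 1, which carries lactate in either direction, and SLC16A3 encodes monocarboxylate transporter 4, the export form of strongly glycolytic cells. Both need a partner protein, basigin, to reach the membrane. In EMT6, Slc16a1 (ENSMUSG00000032902, chromosome 3, 104638668 to 104658462) had 77.3, 70.4 and 67.4 TPM in wild type, against 41.5, 45.7 and 38.0 TPM in the knockout. Every knockout library lay below every wild-type library (log2 fold change -0.77, SE 0.08, limma adjusted p = 0.00103). Slc16a3 (ENSMUSG00000025161, chromosome 11, 120948480 to 120960868) had 82.2, 84.5 and 90.4 TPM in wild type, against 54.1, 51.6 and 49.6 TPM in the knockout, again without overlap (-0.72 ± 0.05 SE, adjusted p = 0.00035). Both were called lower in all 14 alternatives, with log2 fold changes from -0.83 to -0.53 for Slc16a1 and from -0.75 to -0.43 for Slc16a3. On deposited TPM with a pseudocount of 1, 85.4% and 83.0% of tested genes changed less in size. These shares were not computed on the other scales.

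Both genes were lower by similar proportions in EMT6. Slc16a3 made up 54.5 ± 2.87% of their summed transcript in wild type and 55.4 ± 2.05% in the knockout (SD, n = 3), with overlapping groups (exact two-sided permutation p = 0.7). Their sum went from 157 ± 2.32 to 93.5 ± 5.19 TPM. Set against the geometric mean of the 6 enzymes from Aldoa to Pkm in the same library, a ratio added after seeing the data, Slc16a1 stood at 9.2, 8.25 and 7.72% in wild type, against 4.57, 5.32 and 4.33% in the knockout. Slc16a3 stood at 9.79, 9.89 and 10.3% and at 5.95, 6.01 and 5.65%. Within each EMT6 knockout library, then, transporter transcript was lower relative to these 6 enzymes than in any wild-type library. On deposited TPM, 48.3% of all tested genes lay lower without overlap, and the all-gene median log2 fold change was -0.21. The summed TPM of the 6 enzymes stood at 103.8% of wild type. How many other genes fell relative to these enzymes was not counted, so the ratio does not set the transporters apart from other genes.

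**Figure D3:**
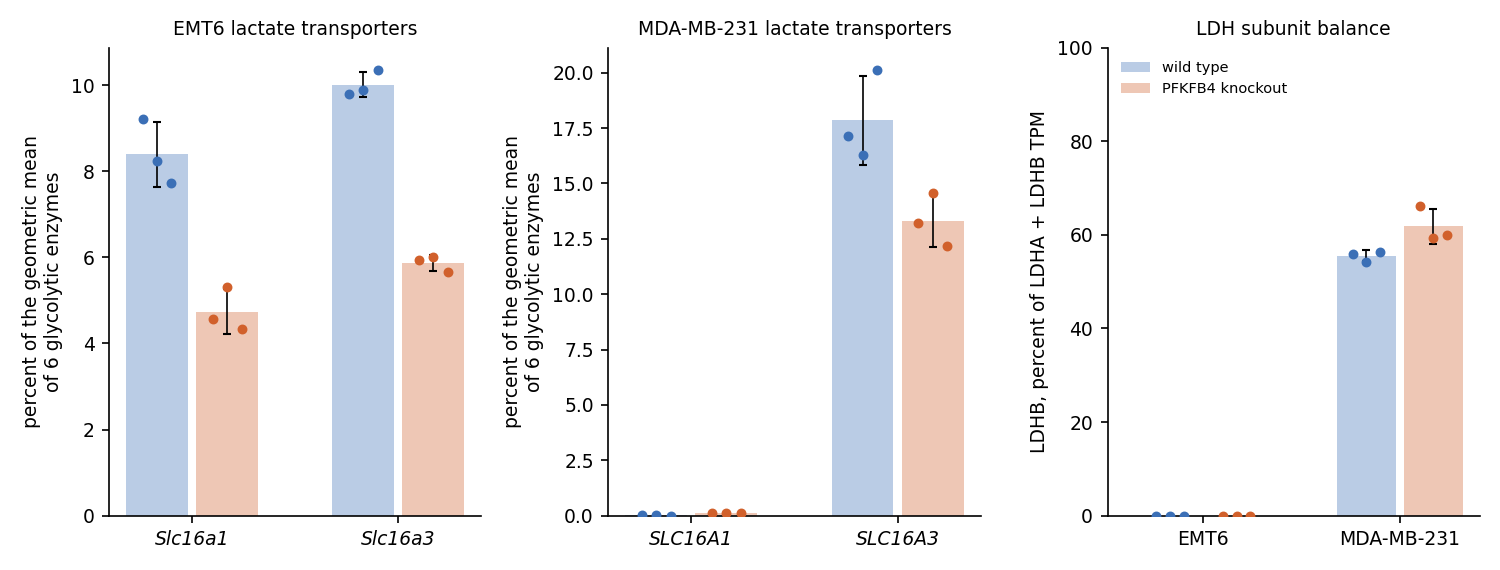
Left and middle: SLC16A1 and SLC16A3 as percent of the geometric mean of 6 glycolytic enzymes in the same library, in EMT6 and in MDA-MB-231. Right: LDHB as percent of LDHA plus LDHB. Bars are means, whiskers SD (n = 3) and points libraries. In EMT6 both transporters lie lower in every knockout library. In TPM, 48.3% of all tested EMT6 genes lay lower without overlap. The LDHB share is 0 in EMT6, and in MDA-MB-231 its mean is 55.5% in wild type and 61.8% in the knockout.

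In MDA-MB-231 nearly all transporter transcript was SLC16A3. SLC16A3 had 150.3, 129 and 183 TPM in wild type, against 99.4, 112 and 95.2 TPM in the knockout. The groups did not overlap, and the log2 fold change was -0.58 with an SE of 0.14 (limma adjusted p = 0.0311). The wild-type spread was wide, and the call held in 4 of 12 alternatives, with adjusted p from 0.0207 to 0.0952. It was lost under median-ratio scaling (-0.53, adjusted p = 0.0546) and in every fit without 1 library except that without wild-type replicate 2. Relative to the 6 enzymes it stood at 17.1, 16.3 and 20.1% in wild type, against 13.2, 14.6 and 12.2% in the knockout.

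SLC16A1 had 0.102, 0.133 and 0.0664 TPM in MDA-MB-231 wild type, against 0.848, 0.840 and 0.994 TPM after knockout. The knockout libraries thus lay above the wild type but under 1 TPM. The log2 fold change was 0.78 with an SE of 0.08 (limma adjusted p = 0.0019) with a pseudocount of 1 and 2.32 with a pseudocount of 0.1. The ratio of mean TPM was 8.92. The number of reads behind such values is not known, and this gene entered the test only through the group where it is high. The share of SLC16A3 in the summed transporter transcript went from 99.9 ± 0.0332% to 99.1 ± 0.147% (exact two-sided permutation p = 0.1, the smallest possible).

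The order of levels differed between the lines. In EMT6 wild type it ran Gapdh, Pkm, Ldha, Aldoa, Pgam1, Pgk1 and Tpi1, then Slc16a3, Slc16a1 and Ldhb. Neighbours in this order did not overlap, except that Pgk1 and Tpi1 did. In the knockout Pgk1 (567 to 619.5 TPM) reached the range of Pgam1 (564 to 599 TPM), which it lay below in every wild-type library. In MDA-MB-231 wild type the order ran GAPDH, ALDOA, LDHB, LDHA, PKM, TPI1, PGK1, PGAM1, SLC16A3 and SLC16A1. ALDOA and LDHB overlapped there, with 1363 to 1739 and 1503 to 1575 TPM. In the knockout PGAM1 (293 to 323 TPM) overlapped with PGK1 (275 to 314 TPM), and LDHA overlapped with PKM and TPI1. The 10 members together held 0.794 ± 0.0199% of EMT6 wild-type TPM and 0.806 ± 0.0222% of knockout TPM, and 0.997 ± 0.0449% and 0.83 ± 0.0102% in MDA-MB-231 (SD, n = 3). The MDA-MB-231 sums did not overlap between groups, with 9478 to 10357 TPM in wild type, against 8198 to 8403 TPM in the knockout.

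Around these genes, neighbouring pathway lists held genes called in each direction in EMT6, with balances that moved with the scale. Their counts stand against 14.5% of all tested genes called higher and 42.3% lower on deposited TPM, 26.6% and 25.4% under median-ratio scaling, and 23.2% and 26.6% with the length trend removed. Of 13 genes of glucose entry and upper glycolysis, all tested, 1 was higher and 9 lower, with a median log2 fold change of -0.31. The knockout target Pfkfb4 is on this list and counts among the 9. Hk2, a hexokinase (0.34, limma adjusted p = 0.0105), rose, while the glucose transporter Slc2a1 (-0.60, adjusted p = 0.000487) and the phosphofructokinase Pfkl (-0.59, adjusted p = 0.000606) fell. Under median-ratio scaling 2 were higher and 5 lower, with the length trend removed 3 and 2, and these 3 genes kept their calls on both.

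Of 13 other isoenzymes of lower glycolysis and lactate, 6 were tested, with 2 higher and 1 lower, and 3 and 1 on either other scale. Pklr, Ldhc and Slc16a7 were listed at 0 in every library. The enolase genes stood at the step between Pgam1 and Pkm. Eno3 (0.16, limma adjusted p = 0.0164) rose and Eno2 (-0.86, adjusted p = 0.000746) fell, from a level under 7 TPM. Ldhd, a dehydrogenase of D-lactate, rose from 1.47 to 1.87 TPM (adjusted p = 0.0406). Eno1, the main enolase, named with its copy after their values were seen, was not called on deposited TPM (-0.09, adjusted p = 0.232), was at 0.15 after median-ratio scaling (adjusted p = 0.0522) and was called higher once the length trend was removed (0.20, adjusted p = 0.0128). Its near-identical copy Eno1b, not on the list, was called higher (0.33, limma adjusted p = 0.00331). Reads may be split between them. Their sum lay between 1111 and 1191 TPM in wild type, against 1193 to 1239 TPM after knockout.

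Of 18 genes for transporter partners and the fate of pyruvate, 17 were tested, with 3 higher and 8 lower, 5 and 6 under median-ratio scaling, and 6 and 4 with the length trend removed. The counts on deposited TPM were near the shares of all tested genes. The subunits of the mitochondrial pyruvate carrier moved apart: Mpc2 rose from 58.6 ± 4.93 to 87.1 ± 3.04 TPM (log2 fold change 0.57, limma adjusted p = 0.00136), and Mpc1 fell from 36.8 ± 0.885 to 23.3 ± 1.85 TPM (-0.64, adjusted p = 0.000848). Pdk3, a kinase that inhibits pyruvate dehydrogenase, rose (0.34, adjusted p = 0.00657). Pdk1, another such kinase named after its values were seen, fell from 27.2 to 13.7 TPM (-0.92, adjusted p = 0.0049). Pdk1 stayed called lower after median-ratio scaling (-0.69, adjusted p = 0.013) and after length trend removal (-0.55, adjusted p = 0.0255). Pdk2 was not called and Pdk4 was not tested. Dld, the dihydrolipoamide dehydrogenase subunit of the pyruvate dehydrogenase complex, fell (-0.97, adjusted p = 0.00175). Basigin, named here after its values were seen, had 217, 229.9 and 233 TPM in wild type, against 269, 256 and 253 TPM in the knockout. Bsg thus rose (0.20, adjusted p = 0.0117) where the transporters that it escorts fell. Embigin, the other partner on the list, had a mean of 1.00 ± 0.167 TPM in wild type, against 0.559 ± 0.0539 TPM after knockout. Emb was called lower (-0.36, limma adjusted p = 0.0121), at this low level.

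Of 6 genes of the glycerol and serine branches, 5 were tested, with 0 higher and 3 lower, 0 and 2 under median-ratio scaling, and 1 and 3 with the length trend removed. Psat1, an aminotransferase of serine synthesis, fell from 239 ± 3.91 to 152 ± 5.93 TPM (-0.65, limma adjusted p = 0.00021). Phgdh, the first enzyme of that branch, was lower in TPM (-0.24, adjusted p = 0.00269) and at -0.01 under median-ratio scaling (adjusted p = 0.909), with -0.19 when the length trend was removed (adjusted p = 0.0101). The plot of members beside the neighbouring pathway genes gives every tested gene of these lists. The corresponding human lists were not analysed here.

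**Figure D4:**
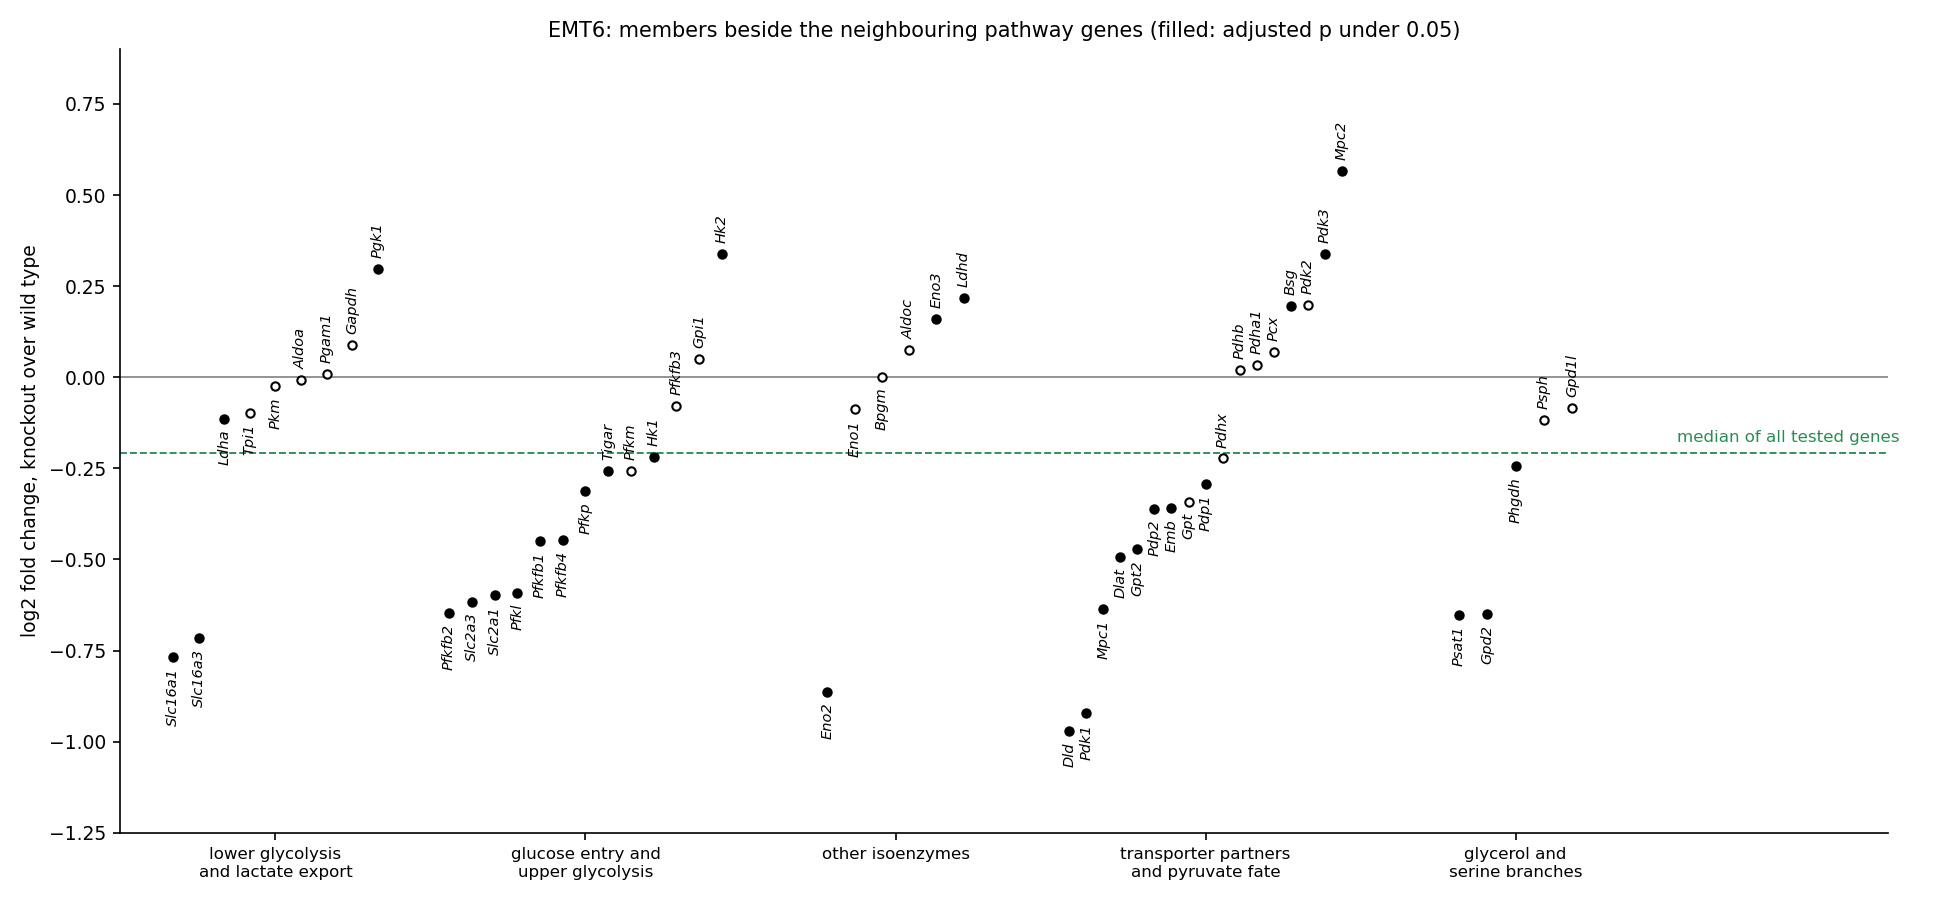
Log2 fold change in EMT6, knockout over wild type, of the members and of 4 lists of neighbouring pathway genes, each point 1 tested gene; filled points have an adjusted p under 0.05 and the dashed line is the median of all tested genes, -0.21. The members from Ldha to Gapdh lie near 0, above that line, while Slc16a1 and Slc16a3 lie below it, near Slc2a1 and Pfkl.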

How the data were processed

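The authors deposited TPM, 1 table per line, and each column sums to 1000000. The submitters' processing notes name the builds mm10 and GRCh38.p7, and as tools TopHat2 2.1.1, Subread 1.6.4, featureCounts and CASAVA 1.8.2. For settings and strand, nothing is given in the sources used here. Depth cannot be read from TPM. Knockout columns carry codes, A7 and G2, that no label explains, and were identified by elimination.

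GENCODE M21 (GRCm38) gave mouse names, positions and exon lengths, and RefSeq the promoters. 54097 of 54331 mouse identifiers had a symbol. Human members were matched by identifier. Other human genes, human exon lengths, proteins and the test between lines were not used here.

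Each line was fitted alone with limma 3.58.1 (R 4.3.3) on log2(TPM + 1), with a mean-variance trend, over genes with at least 0.5 TPM in at least 3 of 6 libraries. P-values were Benjamini-Hochberg adjusted over all tested genes, with calls at 0.05. The test was checked on simulated data. On this scale fold changes of low genes are understated. Shares were compared by exact permutation. Named genes were all members, Pfkfb4, and per list and direction the 2 called genes with the smallest adjusted p. Members and lists were chosen with earlier results of these data known.

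Alternatives were median-ratio scaling, exon length trend removed, a pseudocount of 0.1, no filter, a filter of 1 TPM, no mean-variance trend, a replicate block, pseudogene rows added, and leaving out each library.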

Additional observations from a re-analysis of the deposited data

Results flagged for a closer look

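PGK1 and SLC16A1 moved in opposite directions in the lines, with every knockout library on one side of every wild-type library in each line. PGK1 was at 0.30 in EMT6 and -0.28 in MDA-MB-231 (log2 fold change). The MDA-MB-231 call of PGK1 held in 3 of 12 alternatives and in none of the 6 fits without 1 library. SLC16A1 was at -0.77 in EMT6 and 0.78 in MDA-MB-231, where it stayed under 1 TPM and was tested only through its knockout libraries. With a pseudocount of 0.1 these values were -0.78 and 2.32, so their sizes cannot be set side by side. The difference between the lines was not tested for either gene.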

How the results depend on the processing

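In EMT6, Pgk1, Slc16a1 and Slc16a3 kept direction and call in all 14 alternatives. In MDA-MB-231, SLC16A1 did so in all 11 in which it was tested. It was tested only because its knockout libraries passed the filter, and the filter was not redone when a library was left out. The 4 MDA-MB-231 members called lower kept their direction in 12 of 12 while each lost its call in some.

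Median-ratio scaling gave 3584 genes higher and 3426 lower in EMT6, and removal of the exon length trend 3124 and 3589, with 6 and 3 members higher. The former turned Aldoa to 0.23, Tpi1 to 0.14, Pkm to 0.21 and Ldha to 0.13. Length trend removal gave 0.11 for Aldoa, 0.25 for Pkm, 0.31 for Gapdh, 0.044 for Ldha and -0.016 for Pgam1. The summed members, 125 TPM higher in the EMT6 knockout, with overlapping groups, were 1454 TPM higher under median-ratio scaling and 20.01 (without knockout replicate 1) to 241 TPM higher (without knockout replicate 2) on leaving out 1 library; without wild-type replicate 1 the value was 29.7 and without wild-type replicate 3 it was 229 TPM.

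In MDA-MB-231, members called lower numbered 2 under median-ratio scaling and with a replicate block, and 0 with no filter. A filter of 1 TPM left 0 called higher, since SLC16A1 was no longer tested. The replicate block gave 1564 calls in all, 534 higher and 1030 lower. Same-numbered libraries did not deviate together (correlations of -0.13 to 0.11, EMT6 -0.02 to 0.07), so the numbers were not taken as pairs.

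Leaving out 1 library gave 6248 to 6954 calls in EMT6. In MDA-MB-231 it gave 1551 to 2530 calls, 543 to 1107 higher and 975 to 1597 lower, with 0 to 2 members lower. There 0 were left without wild-type replicate 1 or knockout replicate 2, and 1 without knockout replicate 3. It moved Aldoa between -0.043 and 0.0092, Pgam1 between -0.014 and 0.029 and ALDOA between -0.068 and 0.11, and the EMT6 SLC16A3 share between -0.49 and 2.37 percentage points and the MDA-MB-231 LDHB share between 4.11 and 7.59. Apart from the steps that change the scale or the genes tested, the cause was not tested. Not run for want of human references were the difference between lines and, in MDA-MB-231, the exon length and pseudogene alternatives. The depth behind a value is unknown.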
